A study of Homo sapiens with 6 samples.

Results

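The levels of 10 genes of the NF-kB system were measured in poly(A) RNA of SKOV3, an established human ovarian cancer cell line known for amplified ERBB2. They were the rows of the deposited table whose symbol was NFKB1, NFKB2, RELA, RELB, REL, NFKBIA, NFKBIE, BCL3, TNFAIP3 or BIRC3, which gave 10 of 61552 genes, 5 subunits and 5 feedback inhibitors. One group of cells received 1 µM fenbendazole for 48 h. Fenbendazole is an anthelmintic of the benzimidazole class that binds tubulin. The other group received DMSO, and each group has 3 libraries. Whether libraries of a group came from separate cultures is not in the labels. The p-values therefore reflect the spread among these libraries alone, and that spread may be technical. Library numbers are those of the titles, DMSO 10, 11 and 12 for the controls and fenbendazole 7, 8 and 9 for the treated cells. All results concern 1 cell line at 1 dose and 1 time, and the direction of each difference rests on the submitters' labels.

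NF-kB is a family of dimeric transcription factors built from RELA, RELB, REL and the processed products of NFKB1 (p105 to p50) and NFKB2 (p100 to p52). In resting cells the dimers are held in the cytoplasm by IkB proteins. Receptors such as those for TNF and interleukin-1 activate the IKK kinases, which mark IkB for destruction, and the freed dimers switch on chemokine, cytokine and survival genes. Among the induced genes are the system's own brakes, NFKBIA (IkB alpha), NFKBIE (IkB epsilon) and TNFAIP3 (the ubiquitin-editing enzyme A20), as well as BIRC3 (the ubiquitin ligase cIAP2) and BCL3, an atypical nuclear IkB protein. NFKB1, NFKB2, RELB and REL are also known targets, so the line between subunits and feedback genes is one of function and not of regulation.

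The promoters show what most of these genes share at the sequence level. The kappaB consensus, the sequence to which NF-kB dimers bind, was searched on both strands in the 250 bases before each RefSeq start site (GRCh38.p14), with overlapping matches counted as 1 site. Entries were found for 8 members (all but RELB and NFKBIE), with 12 start sites in all. At least 1 site lay in a window of 6 of these 8 members, and in 7 of the 12 windows (58.33%), against 9.96% of 35116 windows of the same length over all genes. In the gene lists described below the share was 39.47% for other target genes, 36.36% for other inhibitors and 16.67% for receptors and ligands. It was 11.54% for adaptors and ubiquitin ligases and 0.0% for the IKK list. Windows with 2 or more sites made up 4 of the 12 and 0.79% of all. Windows of the same gene are not independent, and NFKB2 had 2 sites at each of its start sites 2 and 3. Neither BCL3 nor RELA had a match in its windows. Members and target genes were listed for their known place in the NF-kB system. Their shares beside that of all genes are therefore a description and no test. A match describes these letters only and does not show binding.

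The stretches of 4 members are shown because they set TNFAIP3, the member with the smallest adjusted p between the groups, beside BIRC3, NFKBIA and NFKB1, whose promoters hold the same consensus. Each is written 5′ to 3′ on the gene's strand and stops before the gene span of the deposited table, and capitals mark the kappaB matches. They cover chr6:137867009-137867213 (plus strand) for TNFAIP3, chr11:102317234-102317449 (plus strand) for BIRC3, chr14:35404750-35404999 (minus strand) for NFKBIA and chr4:102501109-102501330 (plus strand) for NFKB1.
TNFAIP3: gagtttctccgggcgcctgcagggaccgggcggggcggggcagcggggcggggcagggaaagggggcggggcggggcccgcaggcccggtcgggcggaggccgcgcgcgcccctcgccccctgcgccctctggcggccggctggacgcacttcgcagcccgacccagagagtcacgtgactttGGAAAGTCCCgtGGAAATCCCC
BIRC3: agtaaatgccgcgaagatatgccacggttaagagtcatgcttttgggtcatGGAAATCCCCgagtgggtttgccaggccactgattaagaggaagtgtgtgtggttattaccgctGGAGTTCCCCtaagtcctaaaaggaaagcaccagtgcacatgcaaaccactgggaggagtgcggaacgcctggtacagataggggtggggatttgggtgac
NFKBIA: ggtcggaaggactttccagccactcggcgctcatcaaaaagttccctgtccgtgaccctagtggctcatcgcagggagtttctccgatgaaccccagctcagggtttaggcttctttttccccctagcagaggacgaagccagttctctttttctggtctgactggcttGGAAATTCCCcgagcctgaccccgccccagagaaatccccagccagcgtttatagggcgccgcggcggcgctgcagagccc
NFKB1: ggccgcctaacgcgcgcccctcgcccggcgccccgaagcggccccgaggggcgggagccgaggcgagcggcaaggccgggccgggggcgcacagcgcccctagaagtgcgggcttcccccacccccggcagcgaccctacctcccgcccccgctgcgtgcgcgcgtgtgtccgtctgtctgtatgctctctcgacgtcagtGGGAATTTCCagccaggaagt
In TNFAIP3 the sites lay 67 to 58 and 55 to 46 bases before the RefSeq start, and in BIRC3 199 to 190 and 135 to 126 bases before it. NFKBIA had 1 site, 81 to 72 bases before its start, and NFKB1 1 site, 49 to 40 bases before its start. In the first 3 genes the consensus reads on the strand opposite to the gene, and in NFKB1 on the gene's own strand.

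Libraries held 13170775 to 22128930 counts, and 3 counts equal 0.136 to 0.228 CPM (counts scaled to 1 M per library). Among the controls, DMSO 11 differed from both of its fellow libraries: its chi-square per degree of freedom against the other controls was 79.2 and 87.2, while every other pair within a group lay between 4.86 and 8.47. The difference followed GC content. Over 16975 tested genes, the log2 ratio of DMSO 11 to the mean of DMSO 10 and 12 had a Spearman correlation of 0.81 with the GC content of the gene's longest transcript. These points share libraries and genes are not independent replicates. The 6 epithelial and SKOV3 markers all passed the filter on low counts, and 0 rose and 1 fell with fenbendazole. The marker that fell was ERBB2, at 8585, 15880 and 7806 CPM in DMSO 10, 11 and 12 and 4326, 4632 and 4224 CPM with fenbendazole. Its mean was 10760 ± 4454 CPM over the controls, raised by DMSO 11, and 4394 ± 212.3 CPM over the treated libraries (SD, n = 3 each). The log2 fold change was -1.29 ± 0.27 (SE, adjusted p = 0.0422, edgeR). Of 5 fibroblast markers 4 passed the filter, with a summed level of 61.3 to 101.7 CPM in DMSO and 62.0 to 65.1 CPM with fenbendazole. Of 4 endothelial markers 2 passed, with 10.4 to 12.3 and 13.3 to 14.1 CPM. In both lists 0 rose and 0 fell. Of 10 leukocyte markers only CD68 passed the filter. CD3E and MS4A1 had 0 counts in every library, and the summed level of the 10 was 12.7 to 18.8 CPM in DMSO and 15.2 to 17.8 CPM with fenbendazole.

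TNFAIP3 was the member that rose with fenbendazole. All 10 members passed the filter, and in edgeR's quasi-likelihood test with Benjamini-Hochberg adjustment over 17363 genes 1 of 10 was past an adjusted p of 0.05 and higher, against 3.11% of all tested genes, and 0 of 10 lower, against 0.921%. At an unadjusted p under 0.05 there were 2 of 10, TNFAIP3 and BCL3, a share near that of all tested genes (21.3%). DESeq2 called 1 member higher and 0 lower, against 6.11% and 4.28% of genes. The share of genes called in either direction by edgeR was 4.03%. None of the 5 subunits passed. In RNA from bulk cultures, fewer cells with a transcript and less of it per cell cannot be told apart. The libraries of the groups did not overlap for 4 members, NFKB1, BCL3, TNFAIP3 and BIRC3, and this held for 32.6% of all tested genes, so the share among the members was near that background.

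**Figure D1:**
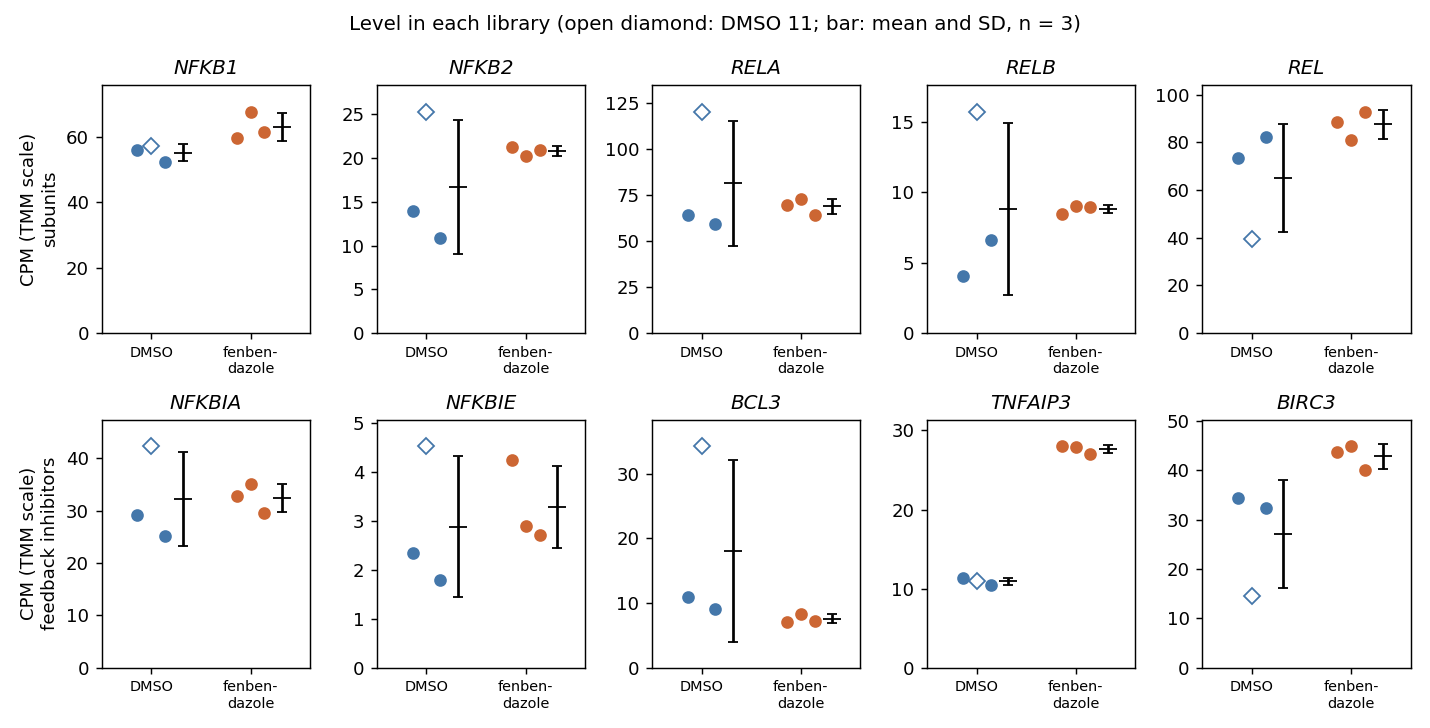
Level of each member in CPM on the TMM scale (vertical axis, from 0) in the 3 DMSO and 3 fenbendazole libraries, with the mean and SD beside each group and DMSO 11 as an open diamond. TNFAIP3 lies at 10.5 to 11.3 CPM in DMSO and 27.0 to 28.0 CPM with fenbendazole, while the spread of most other members in DMSO comes from the open diamond.

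Levels between genes were compared on the deposited FPKM scale, which divides by transcript length. With fenbendazole the order ran from RELA, which encodes the transactivating subunit p65, at 24.9 ± 1.53 FPKM (SD, n = 3), through NFKBIA at 19.9 ± 2.74 and NFKB1 at 14.2 ± 0.61, to REL, NFKB2, BIRC3 and TNFAIP3 between 5.37 and 6.78. BCL3 at 4.13 ± 0.34, RELB at 3.93 ± 0.56 and NFKBIE at 1.13 ± 0.34 FPKM were the lowest. In that order the ranges of the neighbours REL and NFKB2, BIRC3 and TNFAIP3, and BCL3 and RELB overlapped. In DMSO the order began with the same 3 genes and BCL3 came next, at 10.7 ± 6.87 FPKM, and TNFAIP3 stood next to last at 2.58 ± 0.16. Of the 9 pairs of neighbours in DMSO, only NFKBIA with NFKB1 and TNFAIP3 with NFKBIE had ranges that did not overlap.

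**Figure D2:**
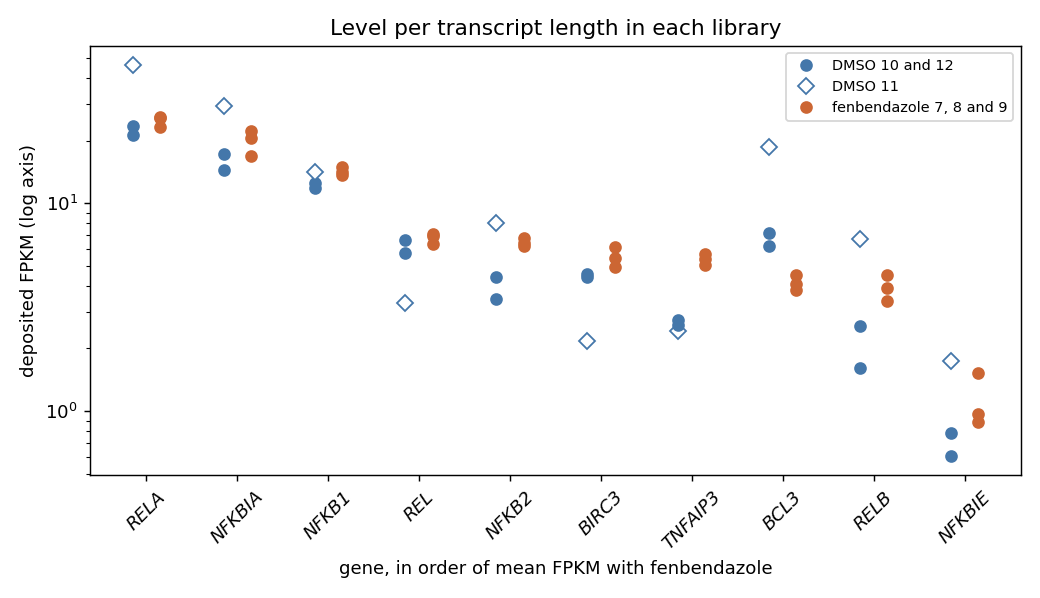
Deposited FPKM of each member (log axis) in every library, in the order of the mean with fenbendazole, with DMSO 11 as an open diamond. RELA is the highest member in both groups, and TNFAIP3 moves from 2.43 to 2.75 FPKM in DMSO to 5.04 to 5.72 FPKM with fenbendazole.

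Among the inhibitors, TNFAIP3 (ENSG00000118503, chromosome 6, 137867214 to 137883312, GRCh38) encodes A20, which edits ubiquitin chains on RIPK1 and other adaptors and so shuts down IKK activation. It had 203, 250 and 141 counts in DMSO 10, 11 and 12 and 423, 386 and 459 with fenbendazole 7, 8 and 9. On the TMM scale these were 11.3, 10.97 and 10.5 CPM against 28.0, 27.9 and 27.0 CPM. Each fenbendazole library was more than any control, and the spread inside each group was small. The fold change was 2.53 (log2 fold change 1.34 ± 0.16 SE, 95% confidence interval 0.98 to 1.70), with an adjusted p of 0.00468 in edgeR's quasi-likelihood test. DMSO 11 lay between the other controls here, and without it the log2 fold change was 1.35 ± 0.13. The adjusted p of this edgeR test was 0.052 without fenbendazole 7 and 0.0506 without fenbendazole 8. Those fits called 0.807% and 0.831% of all genes, against 4.03% with all libraries. On the deposited FPKM scale with a pseudocount of 0.1 the log2 difference was 1.03, smaller than from counts. The FPKM means without a pseudocount, 2.58 and 5.37, also differed by a smaller factor than the CPM means, 10.9 and 27.6. WAKMAR2, a noncoding gene on the opposite strand that overlaps TNFAIP3, had 3 to 9 counts in any library.

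NFKBIA (ENSG00000100906, chromosome 14, 35401513 to 35404749), which encodes the IkB protein that is resynthesised first after NF-kB is activated, showed no such difference. Its level was 29.3, 42.3 and 25.1 CPM in DMSO 10, 11 and 12 and 32.8, 35 and 29.5 CPM with fenbendazole. The groups overlapped through DMSO 11, the highest of the 6 libraries. Its log2 fold change was 0.01 ± 0.22 (SE), with a 95% confidence interval of -0.50 to 0.52, which leaves out a change of the size seen in TNFAIP3. Without DMSO 11 it was 0.26 ± 0.12, with an interval of -0.01 to 0.53 and an adjusted p of 0.164 (edgeR). The ratio of TNFAIP3 to NFKBIA counts within a library, which needs no scaling, was 0.387, 0.259 and 0.417 in DMSO and 0.855, 0.796 and 0.916 with fenbendazole. The proportion of these brakes, both with kappaB matches in their promoters, thus did not overlap between the groups. How often ratios of 2 genes separate the groups over the whole table was not counted. With NFKBIA nearly level, the ratio mostly restates the rise of TNFAIP3. The ratio of BIRC3 to TNFAIP3 did overlap, at 3.03, 1.32 and 3.09 in DMSO and 1.56, 1.61 and 1.48 with fenbendazole.

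BIRC3 (ENSG00000023445, chromosome 11, 102317450 to 102339403) encodes cIAP2, which ubiquitinates RIPK1 and restrains the NF-kB-inducing kinase MAP3K14. Its level was 34.3, 14.5 and 32.4 CPM in DMSO 10, 11 and 12 and 43.8, 44.9 and 40.04 CPM with fenbendazole. Every fenbendazole library was above every control, and DMSO 11 was the lowest by far. The log2 fold change was 0.67 ± 0.31 (SE, adjusted p = 0.262, edgeR), with an interval of -0.05 to 1.39. Without DMSO 11 it was smaller and more precise, 0.37 ± 0.11 (adjusted p = 0.0246, edgeR), a fold change of 1.29.

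BCL3 (ENSG00000069399, chromosome 19, 44747705 to 44760044) partners p50 or p52 homodimers in the nucleus and can act on transcription in either direction. It was the member with the largest lower value, at 10.9, 34.2 and 9.08 CPM in DMSO 10, 11 and 12 and 7.02, 8.37 and 7.30 CPM with fenbendazole. The fenbendazole libraries all lay below the controls, but DMSO 11 held 3.43 times the mean of the other controls. The log2 fold change was -1.26 ± 0.50 (SE, adjusted p = 0.204, edgeR) with all libraries and -0.39 ± 0.20 (adjusted p = 0.174) without DMSO 11. The size of the estimate thus depended on that library, and neither fit called it.

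NFKBIE (ENSG00000146232, chromosome 6, 44258166 to 44265788), which encodes IkB epsilon, was the least abundant member. It had 42, 103 and 24 counts in DMSO 10, 11 and 12 and 64, 40 and 46 with fenbendazole. The groups overlapped and the log2 fold change was 0.17 ± 0.40 (SE), with an interval of -0.77 to 1.11 that spans changes in both directions. Without DMSO 11 it was 0.67 ± 0.35 (adjusted p = 0.202, edgeR).

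Among the subunits, RELA (ENSG00000173039, chromosome 11, 65653599 to 65663090) had 64.3, 120.3 and 59.2 CPM in DMSO 10, 11 and 12 and 69.3, 72.7 and 64.2 CPM with fenbendazole. Its groups overlapped, also without DMSO 11. The log2 fold change was -0.24 ± 0.27 (SE, adjusted p = 0.631, edgeR) with all libraries and 0.16 ± 0.09 (adjusted p = 0.237) without DMSO 11, so its sign depended on 1 library. The interval of the second value was -0.03 to 0.36. RELA-DT, a noncoding gene that overlaps RELA on the opposite strand, had 27 to 109 counts.

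NFKB1 (ENSG00000109320, chromosome 4, 102501331 to 102617302), the source of p50, varied least among the subunits in DMSO. It had 56.1, 57.2 and 52.2 CPM in DMSO and 59.8, 67.8 and 61.5 CPM with fenbendazole. The fenbendazole libraries lay above the controls by a small margin. The log2 fold change was 0.19 ± 0.13 (SE, adjusted p = 0.411, edgeR), and 0.23 ± 0.09 (adjusted p = 0.105) without DMSO 11. REL (ENSG00000162924, chromosome 2, 60881521 to 60931612), which encodes c-Rel, had 73.4, 39.4 and 82.4 CPM in DMSO 10, 11 and 12 and 88.5, 81.2 and 92.9 CPM with fenbendazole. The groups overlapped, since DMSO 12 was above fenbendazole 8, and DMSO 11 was the lowest library. Its log2 fold change was 0.43 ± 0.26 (adjusted p = 0.373, edgeR), and 0.18 ± 0.09 (adjusted p = 0.178) without DMSO 11. A noncoding gene on the same strand that overlaps REL had 17 to 124 counts.

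NFKB2 and RELB form the p52-RelB dimer of the non-canonical pathway, in which MAP3K14 drives the processing of p100. NFKB2 (ENSG00000077150, chromosome 10, 102394110 to 102402524) had 13.9, 25.3 and 10.9 CPM in DMSO 10, 11 and 12 and 21.3, 20.2 and 20.9 CPM with fenbendazole. RELB (ENSG00000104856, chromosome 19, 45001449 to 45038198) had 4.07, 15.8 and 6.62 CPM in DMSO and 8.47, 9.02 and 8.95 CPM with fenbendazole. For both genes the fenbendazole libraries lay close together, above DMSO 10 and 12 and below DMSO 11. With all libraries the log2 fold changes were 0.31 ± 0.31 (SE, adjusted p = 0.586, edgeR) for NFKB2 and -0.01 ± 0.46 (adjusted p = 0.994) for RELB. Without DMSO 11 they were 0.75 ± 0.15 (adjusted p = 0.00297) and 0.74 ± 0.24 (adjusted p = 0.0396), fold changes of 1.68 and 1.67. Offsets for GC content and length, with all 6 libraries kept, gave 0.80 (adjusted p = 0.002) for NFKB2 and 0.74 (adjusted p = 0.0285) for RELB.

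**Figure D3:**
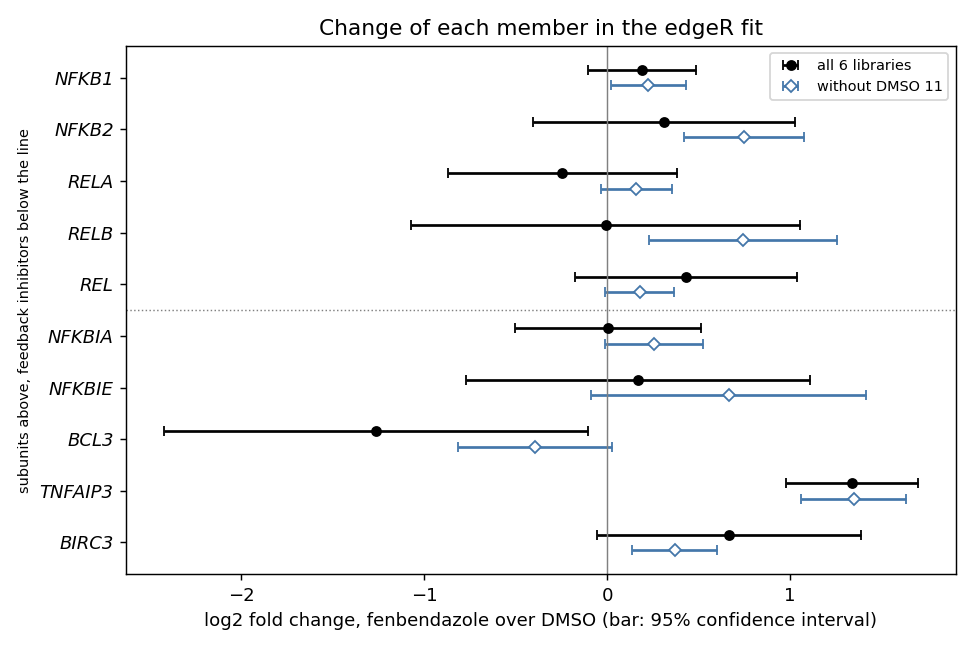
Log2 fold change of each member, fenbendazole over DMSO, with its 95% confidence interval from edgeR, with all 6 libraries (filled circles) and without DMSO 11 (open diamonds). TNFAIP3 stays at 1.34 and 1.35, while NFKB2 moves from 0.31 to 0.75, RELB from -0.01 to 0.74 and BCL3 from -1.26 to -0.39.

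The position of DMSO 11 among the controls sorted the members by GC content. It held 3.43 times the mean of the other controls for BCL3 (67.4% GC), 2.95 times for RELB (65.4%), 2.04 times for NFKB2 (62.4%), 2.19 times for NFKBIE (61.0%) and 1.95 times for RELA (57.1%). NFKBIA, at 53.1% GC, was 1.56 times as high, and NFKB1 and TNFAIP3, at 50.1% and 49.5% GC, differed little, at 1.06 and 1.01 times. REL (38.7% GC) and BIRC3 (34.8%) were 1.98 and 2.30 times lower in DMSO 11. The Spearman correlation over the 10 members was 0.99, as a description of points that share the same 3 libraries. Over all tested genes the median log2 ratio was 1.09 for 2073 genes of at least 60% GC and -0.71 for 2832 genes of at most 40%. Subunits and inhibitors lay on the same trend, and whether GC content is the cause of these differences was not tested.

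**Figure D4:**
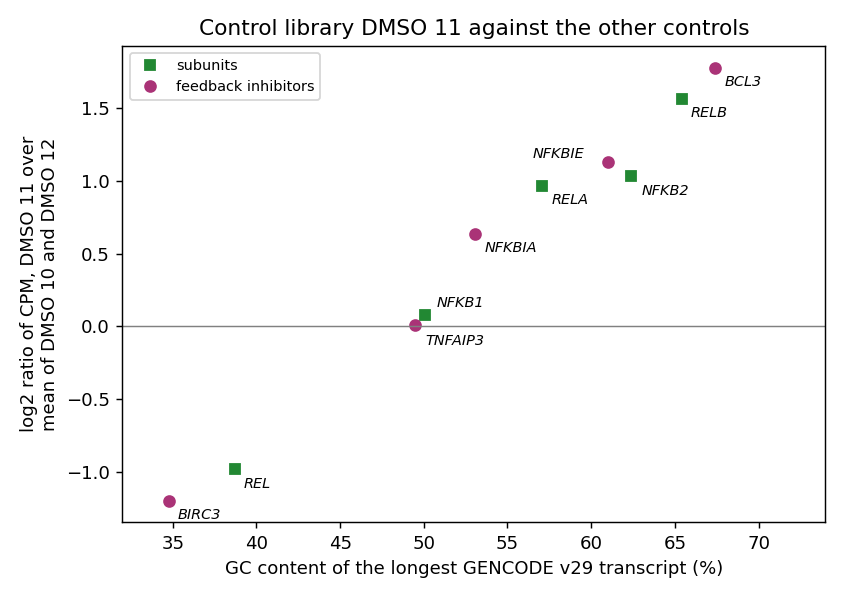
Log2 ratio of CPM in DMSO 11 to the mean of DMSO 10 and 12 (vertical axis) against the GC content of the longest GENCODE transcript (horizontal axis, %) for the 5 subunits (squares) and 5 feedback inhibitors (circles). The ratio climbs from -1.20 for BIRC3 through 0.01 for TNFAIP3 to 1.78 for BCL3.

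Without DMSO 11 edgeR called 4 of the 10 members higher, the inhibitors TNFAIP3 and BIRC3 and the subunits NFKB2 and RELB, and 0 lower, against 13.1% and 9.23% of 17689 genes. That fit leaves out the control that deviated most, and its spread between controls comes from 2 libraries. The fit with GC and length offsets also called 4 members higher (NFKB2, RELB, REL and TNFAIP3) and 0 lower, against 11.8% and 9.24% of genes. A limma-voom fit that weights libraries by their quality called the same 4 as the fit without DMSO 11, and 0 lower, against 14% and 12.4%. TNFAIP3, NFKB2 and RELB were called in all of these fits. Libraries of the groups did not overlap for 8 members without DMSO 11, all but RELA and REL, against 49.4% of genes.

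Set against each other, subunits and inhibitors gave similar counts of calls and similar median fold changes. These medians hide a wide range among the inhibitors, from -1.26 for BCL3 to 1.34 for TNFAIP3 with all libraries. With all libraries 0 of 5 subunits and 1 of 5 inhibitors rose, against 3.11% of all tested genes. The median log2 fold changes were 0.19 and 0.17, beside -0.06 over all tested genes. Without DMSO 11 the calls were 2 of 5 in each role, while the share of all genes called higher grew to 13.1%. The medians were then 0.23 and 0.37, beside -0.01 over all genes. Medians of the level gave another picture. For the inhibitors the median log2 CPM was 3.50, 3.86 and 3.39 in DMSO 10, 11 and 12 and 4.81, 4.80 and 4.76 with fenbendazole. For the subunits it was 5.81, 5.30 and 5.71 against 5.90, 6.08 and 5.94. A median of 5 genes is the level of 1 gene, which was TNFAIP3 for the inhibitors in every fenbendazole library. The summed FPKM of the inhibitors divided by that of the subunits was 0.681, 0.693 and 0.617 in DMSO 10, 11 and 12 and 0.654, 0.692 and 0.571 with fenbendazole 7, 8 and 9. The ranges of the groups overlapped. The makeup of the inhibitor total is described here without a test, and the shares of a total are tied to each other. TNFAIP3 made up 8.46%, 4.48% and 9.12% of it in DMSO and 14.5%, 14.5% and 16.0% with fenbendazole, BCL3 22.1%, 34.3% and 22.0% against 11%, 11.4% and 12.1%, and NFKBIA 51.2% to 56.3% in any library. RELA made up 46.5% to 58.8% of the subunit total in DMSO and 41.9% to 45.5% with fenbendazole. The highest shares of BCL3 and of RELA were those of DMSO 11. BCL3 and RELA each passed the threshold in 0 of 17 alternatives.

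The genes around this core were taken from 5 lists that hold 93 genes and no member. The lists were chosen with earlier results of these data known. Their counts beside the share of all genes are therefore a description and no measure of an excess. Of 20 receptors and ligands, 14 were tested, 2 rose and 1 fell, against 3.11% and 0.921% of all tested genes. The ligands IL1A and IL1B, which signal through the interleukin-1 receptor to IKK, rose 2.90-fold, from 18.0 ± 6.75 to 51.9 ± 1.41 CPM (SD, n = 3 each, adjusted p = 0.0267, edgeR), and 3.53-fold, from 1.98 ± 0.34 to 7.04 ± 1.16 CPM (adjusted p = 0.0113). IL1R1, the receptor for both, fell from 274.0 ± 48.4 to 164.8 ± 3.61 CPM (adjusted p = 0.0445, edgeR). The call of IL1R1 was close to the threshold and failed in 9 of 17 alternatives, limma-voom (adjusted p = 0.0535) and both FPKM fits (0.0577 and 0.0743) among them, while its log2 fold change was negative in all 17. IL1RAP, the co-receptor of IL1R1, named after its values were seen, had 32.2 ± 6.93 CPM in DMSO and 51.5 ± 2.67 CPM with fenbendazole (log2 fold change 0.68 ± 0.19, adjusted p = 0.0988, edgeR). TNFRSF1A, a receptor for TNF also named after its values were seen, went the other way. It had 141.7 ± 41.2 CPM in DMSO and 77.75 ± 6.18 CPM with fenbendazole (log2 fold change -0.87 ± 0.21, adjusted p = 0.068, edgeR). TNF, named after its values were seen because it is the classical inducer, had 8, 21 and 7 counts in DMSO 10, 11 and 12 and 25, 31 and 59 with fenbendazole (log2 fold change 1.93 ± 0.45, adjusted p = 0.0634, edgeR). It passed in 5 of 15 alternatives, DESeq2 (adjusted p = 0.014), the filter at 1 CPM (0.0491), quality weights (0.00554), GC and length offsets (0.00657) and the fit without DMSO 11 (0.00462), and its adjusted p over the 15 ran from 0.00462 to 0.263.

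The steps between receptor and factor were covered by 3 lists. Of 18 tested adaptor and ubiquitin ligase genes, 8 genes of the IKK kinases and the ligase that recognises IkB, and 13 other inhibitors, 0 passed in each list in edgeR's test, against 4.03% of all tested genes, a share at which lists of this size hold few calls or none. The smallest p in each belonged to UBE2N, the ubiquitin-conjugating enzyme that works with TRAF6, at 0.49 ± 0.18 (log2 fold change and SE, adjusted p = 0.181), CHUK, which encodes IKK alpha, at 0.66 ± 0.25 (adjusted p = 0.185), and NKRF, a repressor of NF-kB target genes, at 0.33 ± 0.15 (adjusted p = 0.258). DESeq2 likewise called 0 in these lists, against 10.4% of all genes. Without DMSO 11, 6 adaptor, 1 IKK and 1 inhibitor genes passed, against 22.3% of all genes. With GC and length offsets 7 adaptor genes passed, against 21% of all genes. At an unadjusted p under 0.05, the edgeR fit with all libraries had 2 adaptor, 1 IKK and 0 inhibitor genes, against 21.3% of all tested genes. In the remaining lists it had 9 of 14 receptors and ligands and 15 of 30 target genes.

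Of 33 other NF-kB target genes, 30 were tested. Of these, 5 rose and 0 fell, against 3.11% and 0.921% of all tested genes. This list too was chosen with earlier results known, so the comparison cannot show an excess. The median over the 30 was 0.29 on the log2 scale. CXCL8, a neutrophil chemokine, rose 5.06-fold (adjusted p = 0.00357, edgeR), CXCL1, a related chemokine, 2.03-fold (adjusted p = 0.00949) and PLAU, the urokinase plasminogen activator, 2.02-fold (adjusted p = 0.0121). IL6 rose from 0.61 ± 0.33 to 3.32 ± 0.54 CPM (adjusted p = 0.025, edgeR), and the fifth gene, IL32, named after its values were seen, from 1.91 ± 0.31 to 5.23 ± 0.75 CPM (adjusted p = 0.028). Several of the best known targets of the pathway did not pass: SOD2, a mitochondrial antioxidant enzyme, stood at 542.5 ± 38.2 and 510.0 ± 32.8 CPM, and ICAM1, an adhesion molecule, at 1.32 ± 0.59 and 1.08 ± 0.20 CPM. ICAM1 had only 10 to 44 counts in any library. Other targets that did not pass differed more. BCL2L1 (log2 fold change 0.69, adjusted p = 0.053, edgeR) and CCL20 (1.98, adjusted p = 0.0807) were higher, and EFNA1 (-1.16, adjusted p = 0.0713) was lower. All of these too were named after their values were seen. Without DMSO 11, 13 target genes rose and 2 fell, against 13.1% and 9.23% of all genes, so that the calls grew in number over the whole table. The calls of IL1A, IL1B, IL1R1, IL6, PLAU, CXCL1 and IL32 were kept without DMSO 11, with adjusted p-values from 2.37e-07 for PLAU to 0.003 for IL32 (edgeR). Leaving out DMSO 10 ended the calls of IL1A (adjusted p = 0.102, edgeR), IL1B (0.0554), IL1R1 (0.133), IL6 (0.1) and PLAU (0.0675). Leaving out any 1 fenbendazole library did the same, with adjusted p-values of 0.115 to 0.131 for IL1A, 0.0649 to 0.0774 for IL1B, 0.211 to 0.215 for IL1R1, 0.0943 to 0.134 for IL6 and 0.0732 to 0.0906 for PLAU. Calls were lost over the whole table in these fits. The share of all genes called was 4.03% with all libraries and 0.807% to 0.838% without a fenbendazole library. It was 1.57% without DMSO 10 and 2.88% without DMSO 12. The log2 fold changes of these genes kept their sign in every alternative. IL32 was lost without any one library other than DMSO 11 (adjusted p = 0.0696 to 0.153, edgeR), CXCL1 without fenbendazole 7, 8 or 9 (0.083, 0.0774 and 0.059), and IL1R1 also without DMSO 12 (0.091). The call of CXCL8 was kept without each library in turn.

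**Figure D5:**
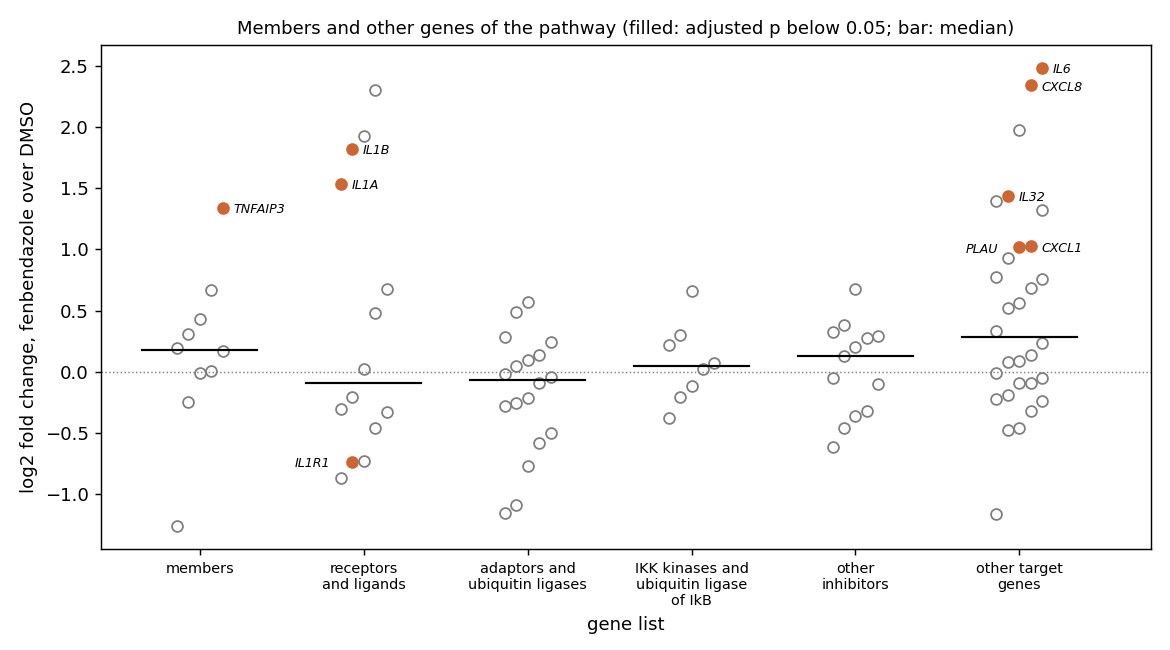
Log2 fold change, fenbendazole over DMSO, of the 10 members and of the tested genes of the 5 other lists, with the genes past an adjusted p of 0.05 filled and named and the median of each list as a bar. The filled genes lie among the ligands, 1 receptor, TNFAIP3 and the target genes, and none among the adaptors, kinases and other inhibitors.

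Over the 6 libraries, the genes whose pattern lay closest to that of TNFAIP3 were RFC5, a subunit of the clamp loader of DNA replication, GINS4, a subunit of the replicative helicase complex, and SMTN, which encodes smoothelin, an actin-associated protein. The root mean square difference of their centred log2 CPM from that of TNFAIP3 was 0.058, 0.064 and 0.081, the smallest among 11595 genes with a symbol and a mean of at least 5 CPM.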

How the data were processed

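Poly(A) RNA of SKOV3 cells was measured in 3 DMSO and 3 fenbendazole libraries. The deposited table gives, per the file headers, a count and an FPKM value per gene and library. The authors made both from reads; the submitters' processing notes name CASAVA 1.8, HISAT2 2.1.0, StringTie 1.3.4b, edgeR and GRCh38. The counting program, with its strand setting and gene annotation, is not given in the sources used here. Reads of overlapping genes can therefore not be told apart. The members and lists were chosen with earlier results of these data known.

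Counts were filtered with edgeR's filterByExpr (17363 of 61552 genes kept), scaled by TMM and tested with edgeR's quasi-likelihood test (edgeR 4.0.16, R 4.3.3), fenbendazole against DMSO over the 6 libraries without covariates, with Benjamini-Hochberg adjustment over all tested genes and a threshold of 0.05. FPKM values, taken as deposited, served for levels between genes and, as log2(FPKM + pseudocount of 1 or 0.1), for limma 3.58.1. The pseudocount shrinks the fold changes of low genes on that scale, and the deposited FPKM values can also differ from counts by themselves. DESeq2 1.42.0, limma-voom with and without quality weights, other scalings and filters, GC and length offsets, a threshold of 0.01 and leaving out each library were the alternatives, 17 in all. The longest GENCODE transcript supplied GC content and length for 97.8% of tested genes. Scripts were tested on simulated data.

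All members are named. From each other list, up to 4 genes were named by the rule: those past the threshold with the smallest p, or else the gene with the smallest p. For members past the threshold the 3 genes closest in pattern were named too. Promoter sequences came from RefSeq (GRCh38.p14), matched by symbol. Python 3.11.15 with matplotlib 3.10.9 drew the figures.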

Additional observations from a re-analysis of the deposited data

How the results depend on the processing

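Over all genes 700 were called, 540 higher and 160 lower. The same counts were 1697, 998 and 699 in DESeq2, 4587, 2434 and 2153 with quality weights, 3646, 2041 and 1605 with offsets for GC content and length, and 210, 193 and 17 at a threshold of 0.01. Leaving out 1 library gave 147 to 3946, 139 to 2313 and 8 to 1633. The highest of each came without DMSO 11. Of the 540 genes higher with all libraries, 538 were also higher without it, and of the 160 lower, 160 were.

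For the members called higher the count was 4 with GC and length offsets, against 11.8% of genes, and 4 with quality weights, against 14%. It was 0 to 4 when 1 library was left out (0 without fenbendazole 7 or 8), against 0.763% to 13.1%. TNFAIP3 was past the threshold in 15 of 17 alternatives, with log2 differences of 0.83 to 1.36. RELB changed sign: -0.01 with all libraries became 0.87 with quality weights, 0.74 with GC and length offsets, and between -0.35 and 0.74 without 1 library (0.74 without DMSO 11). The cause was not tested.

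With offsets 7 of 18 adaptors, 1 of 8 IKK genes and 1 of 13 other inhibitors were called, against 21% of all tested genes. So were 14 of 30 targets and 9 of 14 receptors and ligands. With quality weights the counts in this order were 7, 3, 2, 14 and 8, against 26.4%. DESeq2 called 9 targets and 6 receptors and ligands, against 10.4% of genes. The FPKM fit with a pseudocount of 0.1 called 3 targets, against 4.16%. The threshold of 0.01 left 2 targets and 0 receptors or ligands, against 1.21%. Leaving out 1 library gave 0 to 6, 0 to 1, 0 to 1, 1 to 15 and 0 to 7 in the order above, against 0.807% to 22.3%. NFKBIE did not pass the FPKM filter and has no test there. No paired analysis was possible because fenbendazole and DMSO libraries have no replicate number in common.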
